A study of Mus musculus with 6 samples.

Results

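A group of 9 meiotic recombination genes, out of 24028 genes in the expression table, was followed in fully grown mouse oocytes. They were chosen by name: Spo11, Mei1 and Mei4 for the making of DNA double-strand breaks, Dmc1 for strand invasion, Msh4, Msh5, Hfm1 and Mlh3 for crossovers, and M1ap. Each symbol stood on 1 row. RNA was measured by sequencing in germinal vesicle (GV) oocytes, which are held in meiotic prophase until ovulation. The comparison is of Ring1-null oocytes that do or do not also lose Rnf2, the paired E3 ubiquitin ligases at the core of Polycomb repressive complex 1. The 3 dKO libraries came from females of genotype Ring1 -/-; Rnf2 f/f; Zp3-cre, and the 3 control libraries from Ring1 -/-; Rnf2 f/f females without the transgene. Both groups therefore lacked Ring1, both had a mixed FVB, 129/Sv and C57BL/6J background, and no library with intact Ring1 was measured. The Zp3 promoter drives Cre in growing oocytes, and the design cannot part the loss of Rnf2 from an effect of the transgene. Each library held the RNA of 15 oocytes pooled from 1 female of about 3 months, so the replicates are different animals.

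In meiotic prophase the topoisomerase-like protein SPO11 cuts both DNA strands, with partners that include MEI1 and MEI4. DMC1 coats the cut ends and finds the homologous chromosome, and the MSH4-MSH5 pair, the helicase HFM1 and an endonuclease that contains MLH3 turn a subset of the joined ends into crossovers. In female mice this takes place before birth, so GV oocytes are long past it, and their growth, when Zp3-cre acts, comes later.

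Levels are in FPKM, which divides a gene's fragments by its length and by the library's total. How the deposited values were scaled between libraries is not stated. Levels were compared between genes because they are per length, but any unevenness between genes left by the amplification was not measured. Rnf2 followed the genotype labels, with 14.8, 8.44 and 5.31 FPKM in the dKO libraries, against 53.7, 46.8 and 48.2 FPKM in the controls. Ring1 was at or under 0.240 FPKM in the dKO libraries and at or under 0.0973 FPKM in the controls. Depth is given by no file. Read from the commonest ratio of low values, it was 0.661, 0.805 and 1.08 times that of control replicate 1 in dKO replicates 1 to 3, and 0.904 and 1.02 times in the other controls. By this reading, low values would be least precise in dKO replicate 1. That library nevertheless had the most genes above 0 (18346), against 17763 in dKO replicate 3. The FPKM columns summed to between 278701 and 309549 in dKO and between 318273 and 327480 in control libraries. Log2(FPKM + 1) values correlated at 0.928 to 0.948 among dKO libraries and at 0.982 to 0.983 among controls. Oocyte markers were abundant in both groups, with Gdf9, Zp3 and Ooep averaging 1756, 918 and 605 FPKM in dKO oocytes and 2436, 1437 and 1211 FPKM in controls. Of the 12 oocyte markers 3 fell (Bmp15, Ooep and Kit) and 0 rose, against 7.04% falling and 14.0% rising over all tested genes. Gdf9 and Zp3 were not called (limma adjusted p = 0.229 and 0.0797). At an unadjusted p below 0.05 (limma) 8 of the 12 were lower and 0 higher. Of the 3 that fell, Bmp15 lost its call with the replicate block (limma adjusted p = 0.0740), and Bmp15 and Ooep lost theirs with no filter (0.104 and 0.115). Kit kept its call with the block and with no filter (limma adjusted p = 0.0164 and 0.0228). Every library pooled 15 oocytes, and FPKM is relative to the library's total. Less of a marker's RNA per oocyte and more of other RNA therefore cannot be told apart. For other cell types in bulk RNA, fewer cells and less RNA per cell cannot be told apart.

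The recombination genes fell into 3 ranges of level, and 1 gene changed its range between the genotypes. In dKO oocytes Mei4, M1ap and Msh4 stood highest, at mean levels of 17.0, 14.2 and 12.6 FPKM, and their ranges over libraries overlapped from each to the next. Mlh3, Dmc1 and Hfm1 followed at 1.88, 1.32 and 1.24 FPKM, again with overlapping ranges. Mei1 and Msh5 were at 0.344 and 0.150 FPKM, and Spo11 was listed at 0. In control oocytes the order was Msh4, Mei4, Mlh3, Dmc1, Hfm1, M1ap, Mei1, Msh5 and Spo11. There the highest were Msh4 at 13.6 FPKM and Mei4 at 10.4 FPKM, whose ranges were apart, while the ranges of Mlh3, Dmc1 and Hfm1 overlapped from each to the next. M1ap stood sixth at 0.231 FPKM. The other 8 genes kept their order relative to each other except for Mei4 and Msh4, which changed places. Across all 20310 genes above 0 in any library, 79.6% had a lower mean than M1ap in dKO oocytes and 35.8% in controls.

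**Figure D1:**
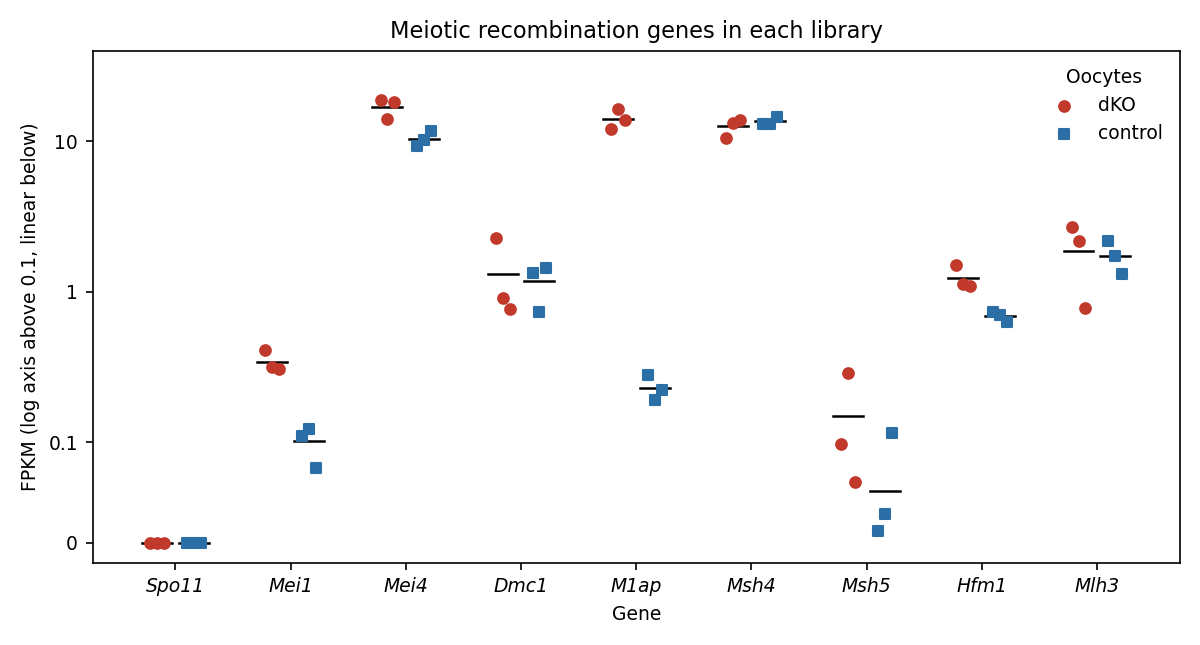
Level of each of the 9 genes in FPKM (vertical axis, logarithmic above 0.1 and linear below), with 1 point per library, dKO as circles and control as squares, and a bar at each group's mean. M1ap stands at 12.2 to 16.4 FPKM in dKO libraries and at 0.193 to 0.279 FPKM in controls, while Msh4 lies at 10.6 to 14.6 FPKM in all 6 libraries.

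Genes were tested with limma on log2(FPKM + 1), with p-values adjusted over all 11334 genes that reached 1 FPKM in at least 3 libraries (the filter) and a threshold of 0.05. Changes on this scale understate those of low genes. Of the 9 genes 6 passed the filter, of which 2 rose (M1ap and Mei4), 0 fell and 4 were not past the threshold (Dmc1, Msh4, Hfm1 and Mlh3). Of all tested genes 14.0% rose and 7.04% fell. M1ap and Hfm1 passed the filter through the dKO libraries alone, so genes that do so had to be higher there. No member fell at an unadjusted p below 0.05 either. Without the filter, 3 of the 8 genes above 0 rose (Mei1 was added), against 9.88% of the 20310 genes then tested.

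M1ap encodes meiosis 1 associated protein, which is needed for male meiosis in mice and binds the crossover protein TEX11. Its level was 12.2, 16.4 and 13.9 FPKM in dKO replicates 1 to 3, against 0.279, 0.193 and 0.222 FPKM in control replicates 1 to 3. Every dKO library stood far above every control, and within each group the libraries were close. The means were 14.2 ± 2.15 FPKM in dKO and 0.231 ± 0.0437 FPKM in control oocytes (SD, n = 3 each), a ratio of 61.3. On the log2 scale it rose by 3.61 ± 0.20 (SE, limma adjusted p = 1.76e-05), the 32nd largest rise of the 11334 genes tested. Of the summed means of the 9 genes M1ap made up 29.1% in dKO oocytes and 0.826% in controls. The sum over the 9 genes was 48.5 to 49.0 FPKM in dKO libraries and 26.8 to 30.1 FPKM in controls, and without M1ap it was 32.0 to 36.4 FPKM in dKO libraries and 26.6 to 29.9 FPKM in controls. Among the genes left in that sum Mei4 differed most, with means of 17.0 FPKM in dKO and 10.4 FPKM in control oocytes. Msh4, the other high gene, averaged 12.6 and 13.6 FPKM. The tested genes whose log2 values over the 6 libraries lay nearest to those of M1ap were Pcp4l1 and Cd47, at Euclidean distances of 0.41 and 0.42. They averaged 13.3 and 12.7 FPKM in dKO oocytes and 0.343 and 0.267 FPKM in controls.

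Mei4 encodes a partner of REC114 that is required for break formation in mouse meiosis. Its level was 18.8, 14.0 and 18.2 FPKM in dKO replicates 1 to 3, against 9.26, 10.2 and 11.8 FPKM in control replicates 1 to 3. The groups did not overlap, but the lowest dKO library and the highest control were close. The means were 17.0 ± 2.60 FPKM in dKO and 10.4 ± 1.27 FPKM in control oocytes (SD, n = 3 each), a ratio of 1.63. On the log2 scale it rose by 0.65 ± 0.19 (SE, limma adjusted p = 0.0376). This call was lost on leaving out dKO replicate 1 or 3 or any 1 control, with limma adjusted p of 0.0790, 0.0594, 0.152, 0.134 and 0.0793, after quantile normalization (0.0578), with libraries centred on their means (0.0794) and with array weights (0.0526). The change stayed above 0 in each of these, between 0.55 and 0.74. Its nearest genes by distance were Vcp and Setd6, at 0.33 and 0.37, with 15.7 and 15.3 FPKM in dKO oocytes and 10.5 and 11.1 FPKM in controls. Vcp was past the threshold (limma adjusted p = 0.0461) but not with the replicate block (0.0801). Setd6 was not past it (limma adjusted p = 0.181), and its groups overlapped.

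Mei1, also required for break formation in mice, was low in every library and below the filter. It stood at 0.411, 0.316 and 0.306 FPKM in dKO replicates 1 to 3, against 0.110, 0.122 and 0.0749 FPKM in control replicates 1 to 3. The groups did not overlap, and the ratio of the means was 3.36. With no filter it rose on the log2 scale by 0.29 ± 0.05 (SE, limma adjusted p = 0.0168). This call was lost when the replicate block was added (limma adjusted p = 0.0611), with a filter of 0.1 FPKM (0.0619), without control replicate 1, 2 or 3 (0.0743, 0.0699 and 0.0809), after quantile normalization (0.342) and with centred libraries (0.146). Spo11 was listed at 0 in all 6 libraries, so no change can be given for the gene of the cutting enzyme itself.

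**Figure D2:**
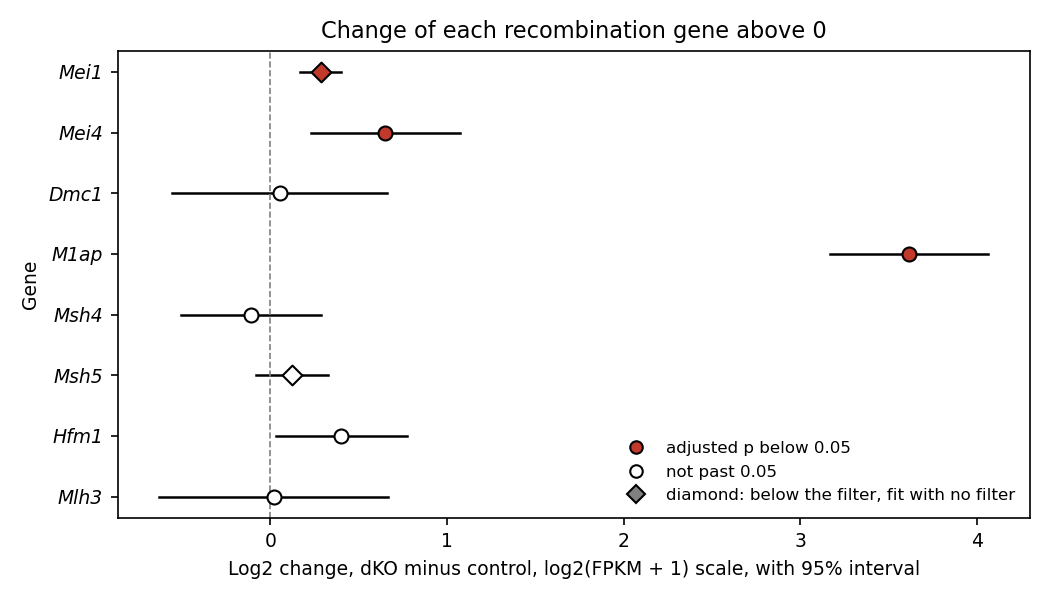
Log2 change, dKO minus control, on the log2(FPKM + 1) scale (horizontal axis) of the 8 genes above 0, with 95% intervals from limma. Filled points are past an adjusted p of 0.05, and diamonds mark Mei1 and Msh5, which are below the filter and come from the test with no filter. M1ap stands alone at 3.61, Mei4 and Mei1 are at 0.65 and 0.29, and the intervals of Dmc1, Msh4, Msh5 and Mlh3 include 0.

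Hfm1, a DNA helicase needed for crossovers in mice, had 1.50, 1.13 and 1.09 FPKM in dKO replicates 1 to 3, against 0.739, 0.704 and 0.630 FPKM in control replicates 1 to 3. All dKO libraries were above all controls, and the ratio of the means was 1.80. The log2 change of 0.40 ± 0.16 (SE) was not past the threshold (limma adjusted p = 0.116), with a 95% interval of 0.03 to 0.78 before adjustment over genes. Its value was -0.10 after quantile normalization. Across the 8 genes above 0, the groups did not overlap for 4 (M1ap, Mei4, Mei1 and Hfm1), each with dKO higher, against 22.3% of the 20310 genes above 0.

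Msh4 and Msh5, relatives of the bacterial mismatch repair protein MutS, work as a pair but differed in level. Msh4 had 10.6, 13.2 and 13.9 FPKM in dKO replicates 1 to 3, against 13.1, 13.1 and 14.6 FPKM in control replicates 1 to 3. The groups overlapped, and its log2 change came to -0.11 ± 0.17 (SE, limma adjusted p = 0.683) with a 95% interval of -0.51 to 0.29. Msh5 stood at 0.0984, 0.291 and 0.0601 FPKM in dKO replicates 1 to 3, against 0.0121, 0.0288 and 0.115 FPKM in control replicates 1 to 3. These overlap too, and with no filter its log2 change came to 0.12 ± 0.08 (SE, limma adjusted p = 0.387). Exons of Msh4 overlap Gm24395 on the other strand, the only such overlap among the 9 genes in GENCODE M21.

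Dmc1, the meiosis-specific recombinase, had 2.29, 0.912 and 0.766 FPKM in dKO replicates 1 to 3, against 1.34, 0.738 and 1.44 FPKM in control replicates 1 to 3. Its dKO mean rests on replicate 1, and without that library the log2 change was -0.23, against 0.05 ± 0.27 (SE, limma adjusted p = 0.903) with it. Mlh3, which encodes a subunit of an endonuclease that cuts crossover intermediates, had 2.69, 2.16 and 0.784 FPKM in dKO replicates 1 to 3, against 2.16, 1.72 and 1.32 FPKM in control replicates 1 to 3. Here dKO replicate 3 was the lowest of the 6 libraries and dKO replicate 1 the highest. Its log2 change came to 0.02 ± 0.29 (SE, limma adjusted p = 0.970). The 95% intervals, before adjustment over genes, ran from -0.55 to 0.66 for Dmc1 and from -0.63 to 0.67 for Mlh3. Changes within these bounds remain possible.

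The sequence before the start of M1ap is shown because that gene moved most, beside those of Mei4, with a smaller rise, and Msh4, with a like level in both groups. Each is the 250 bases before the gene's RefSeq start on build GRCm38.p6, with CpG pairs in capitals. They lie at chr6:82946672-82946921 on the plus strand, chr9:81863420-81863669 on the plus strand and chr3:153904892-153905141 on the minus strand. The expression values were made on build mm9, and these coordinates are not of that build.
M1ap: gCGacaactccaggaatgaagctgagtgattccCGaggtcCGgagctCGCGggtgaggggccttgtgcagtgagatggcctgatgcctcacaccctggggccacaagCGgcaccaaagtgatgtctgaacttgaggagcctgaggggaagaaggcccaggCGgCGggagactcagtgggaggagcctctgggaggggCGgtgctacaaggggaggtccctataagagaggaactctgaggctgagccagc
Mei4: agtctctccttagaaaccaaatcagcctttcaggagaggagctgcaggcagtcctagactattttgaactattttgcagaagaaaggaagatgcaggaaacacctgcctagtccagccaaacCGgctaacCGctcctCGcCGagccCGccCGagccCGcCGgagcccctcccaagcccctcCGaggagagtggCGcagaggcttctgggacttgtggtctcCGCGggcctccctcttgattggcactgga
Msh4: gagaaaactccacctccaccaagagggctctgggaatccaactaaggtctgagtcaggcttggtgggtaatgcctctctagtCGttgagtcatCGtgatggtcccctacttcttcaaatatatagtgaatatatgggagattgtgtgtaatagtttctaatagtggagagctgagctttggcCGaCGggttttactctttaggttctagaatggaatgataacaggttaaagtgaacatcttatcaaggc
These stretches hold 9, 12 and 4 CpG pairs for M1ap, Mei4 and Msh4. In the whole 300-base RefSeq windows, 250 before and 50 after the start, they held 11, 16 and 6, and the median of all 32851 windows was 7. Windows were found for 8 of the 9 genes (Spo11 had none), with 6 CpG pairs in Msh4 and up to 41 in Hfm1. The E-box CACGTG, read on both strands, was in none of the 8 genes' windows and in 7.15% of all windows. The E2F motif TCCCGC, read on both strands, was in 4 of the 8 genes' windows (M1ap, Hfm1, Dmc1 and Msh5) and in 20.0% of all windows. In M1ap it begins 88 bases before the start. These motifs do not overlap each other. In the 4 genes' windows with the E2F motif 61.3 to 75.3% of bases were G or C, and in the other members' windows 43.3 to 60.7%. The median of all windows was 52.7%, and the shares with the motif were not matched for base composition. Of the called members M1ap held the motif and Mei4 did not, and of the tested members that were not called Hfm1 and Dmc1 held it and Msh4 and Mlh3 did not.

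The genes next to M1ap and Mei4 were also read, a choice made after the values were seen. Gene order was taken from RefSeq on GRCm38.p6, over protein-coding genes in the table, with the nearest pair on each side. Of these 8 neighbours 5 were tested, and 4 rose, against 14.0% of all tested genes. Of the 4, all but Irak1bp1 passed the filter through the dKO libraries alone and so had to be higher there. The count of 4 is therefore partly set by the filter. Beside M1ap, Sema4f, a semaphorin gene, had 2.83, 1.87 and 2.81 FPKM in dKO replicates 1 to 3, against 0.333, 0.147 and 0.429 FPKM in control replicates 1 to 3 (limma adjusted p = 0.00107). The hexokinase gene Hk2, next along, had 2.49, 2.17 and 2.59 FPKM in dKO replicates 1 to 3, against 0.551, 0.590 and 0.582 FPKM in control replicates 1 to 3 (limma adjusted p = 0.00169). On the other side Dok1 was listed at 0 in all libraries and Loxl3 was at most 0.0477 FPKM. The 2 genes that rose lie on 1 side of M1ap, and those on the other side were too low to be tested.

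Beside Mei4, Irak1bp1 had 8.58, 6.50 and 10.2 FPKM in dKO replicates 1 to 3, against 1.43, 1.35 and 1.77 FPKM in control replicates 1 to 3. Its log2 change of 1.89 ± 0.22 (SE, limma adjusted p = 0.000455) was larger than the 0.65 of Mei4. The serotonin receptor gene Htr1b, on the other side, had 1.07, 1.21 and 1.15 FPKM in dKO replicates 1 to 3, against 0.0672, 0 and 0 FPKM in control replicates 1 to 3 (limma adjusted p = 0.00104). Phip, beyond Irak1bp1, averaged 18.0 FPKM in dKO and 15.5 FPKM in control oocytes (limma adjusted p = 0.578), and Impg1 was at most 0.0708 FPKM. Sema4f, Hk2 and Htr1b passed the filter through the dKO libraries alone.

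**Figure D3:**
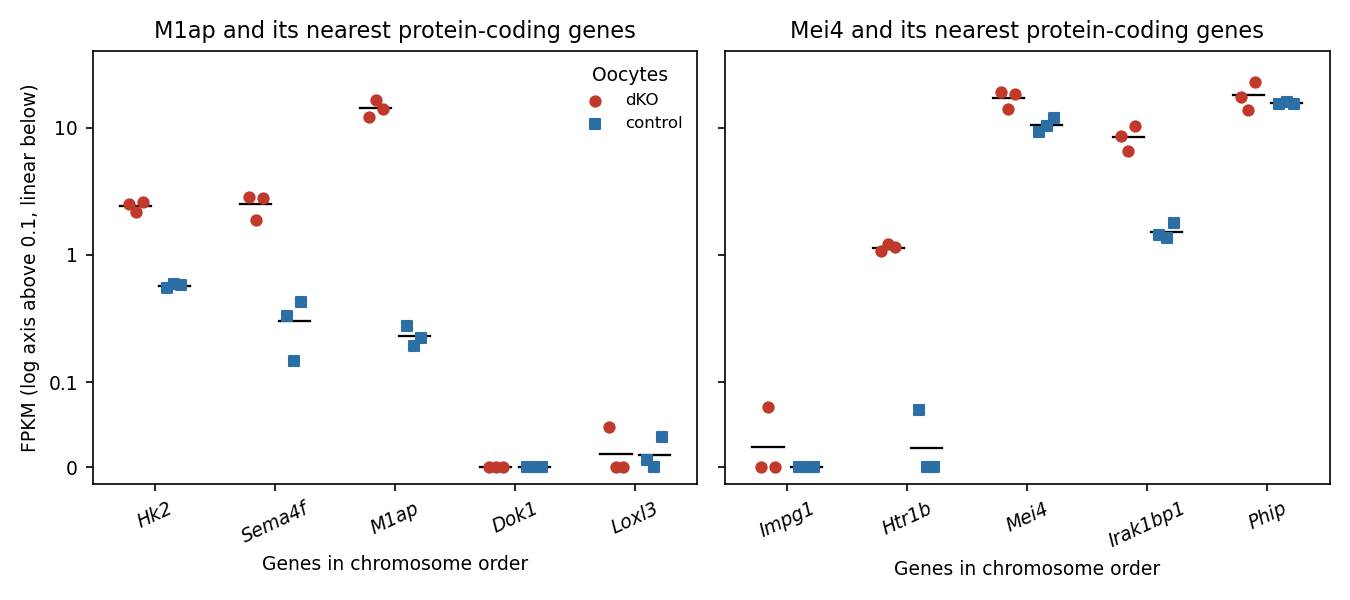
Level in FPKM (vertical axis, logarithmic above 0.1 and linear below) of M1ap, Mei4 and the nearest protein-coding genes in chromosome order, with 1 point per library, dKO as circles and control as squares, and a bar at each group's mean. Sema4f and Hk2 beside M1ap and Htr1b and Irak1bp1 beside Mei4 lie higher in every dKO library than in any control.

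Other genes of the pathway were listed by role, and 64 of the 72 names searched (some of them older names of the same gene) had a row. Of these 59 were tested, of which 9 rose, 3 fell and 47 were not past the threshold. Their median log2 change was -0.05. Over all tested genes 14.0% rose, 7.04% fell and the median was -0.02. At an unadjusted p below 0.05 (limma) 10 of the 59 were higher and 9 lower. The share of all genes at an unadjusted p below 0.05 was not counted, so such counts for any list have no background. The split of calls among the 59 depended on scaling, with 9 rising and 8 falling when libraries were centred on their means and 7 and 2 after quantile normalization. Exons of Rec114, Zcwpw1, Spata22, Ccnb1ip1, Cntd1, Mcm9, Psmc3ip, Swi5 and Xrcc3 overlap other annotated genes, so reads of these may be shared.

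Of the 12 tested genes for break formation and processing 4 rose and 0 fell, and 0 were lower at an unadjusted p below 0.05 (limma), with a median log2 change of 0.11. Hormad1, whose protein marks unpaired chromosome axes, had 7.22, 2.68 and 4.04 FPKM in dKO replicates 1 to 3, against 0.157, 0.196 and 0.152 FPKM in control replicates 1 to 3 (log2 change 2.19 ± 0.28 (SE), limma adjusted p = 0.000771, and 0.0112 with no filter). It passed the filter through the dKO libraries alone. Ccdc36, which encodes the MEI4 partner IHO1, had 7.29, 7.66 and 9.38 FPKM in dKO replicates 1 to 3, against 1.07, 0.819 and 2.74 FPKM in control replicates 1 to 3 (log2 change 1.91 ± 0.29 (SE), limma adjusted p = 0.00189). Rec114 averaged 8.21 ± 0.0927 FPKM in dKO and 3.99 ± 0.956 FPKM in control oocytes (SD, n = 3 each, limma adjusted p = 0.0163). Its call was lost without control replicate 2 or 3 (limma adjusted p = 0.0583 and 0.0793). The fourth, Zcwpw1, a reader of histone marks at break sites, was named after its values were seen, with a log2 change of 0.69, and lost its call without any 1 control (limma adjusted p of 0.0803 to 0.144), after quantile normalization (0.0653) and with array weights (0.0502).

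Strand invasion and repair had 25 genes past the filter, with 1 rise and 2 falls and a median log2 change of -0.25. At an unadjusted p below 0.05 (limma) 1 was higher and 6 were lower. Spata22, whose protein binds single-stranded DNA with MEIOB, had 4.73, 3.17 and 3.08 FPKM in dKO replicates 1 to 3, and in control replicates 1 to 3 it was listed at 0, 0.0665 and 0 FPKM (log2 change 2.17 ± 0.19 (SE), limma adjusted p = 0.000107, and 0.00245 with no filter). This one rise of the list passed the filter through the dKO libraries alone. Psmc3ip, which helps DMC1 and is also known as Hop2, averaged 19.4 ± 1.17 FPKM in dKO and 30.2 ± 2.97 FPKM in control oocytes (SD, n = 3 each, limma adjusted p = 0.0217). Swi5, which takes part in recombination repair, averaged 116 ± 18.1 FPKM in dKO and 169 ± 8.97 FPKM in control oocytes (SD, n = 3 each, limma adjusted p = 0.0442). Psmc3ip lost its call without any 1 control (limma adjusted p = 0.120, 0.0692 and 0.0884). Swi5 lost it without dKO replicate 1 or any 1 control (limma adjusted p = 0.0561, 0.140, 0.126 and 0.172) and with the replicate block (0.0685), and in all in 9 of 17 alternatives. Xrcc3, needed for repair by homologous recombination and named after its values were seen, had 4.54, 13.4 and 17.4 FPKM in dKO replicates 1 to 3, against 25.6, 30.0 and 23.5 FPKM in control replicates 1 to 3. Its log2 change of -1.26 ± 0.39 (SE), the lowest of the list, was not past the threshold (limma adjusted p = 0.0502), but was with the replicate block (0.0170).

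Among 22 tested genes of crossover maturation and resolution 4 rose and 1 fell, with a median log2 change of 0.07, and at an unadjusted p below 0.05 (limma) 5 were higher and 3 lower. Ccnb1ip1, which encodes the crossover factor HEI10, averaged 6.57 ± 1.29 FPKM in dKO and 1.38 ± 0.710 FPKM in control oocytes (SD, n = 3 each, limma adjusted p = 0.00200). Prr19 and Cntd1, partners in crossover designation in mice, had log2 changes of 1.30 ± 0.28 and 0.87 ± 0.20 (SE, limma adjusted p = 0.0116 and 0.0171). Their means were 3.41 and 4.10 FPKM in dKO and 0.828 and 1.77 FPKM in control oocytes. Prr19 lost its call with no filter (limma adjusted p = 0.0511), and Cntd1 lost it without any 1 control (limma adjusted p = 0.0780, 0.0706 and 0.0650) and after quantile normalization (0.0818). Mcm9, a helicase gene named after its values were seen, rose by 0.86 on the log2 scale (limma adjusted p = 0.0365), a call that held without dKO replicate 1 and not when any other library was left out (0.0638 to 0.134), nor with no filter (0.0760). Blm, the helicase that undoes crossover intermediates, averaged 14.4 ± 0.717 FPKM in dKO and 21.3 ± 1.77 FPKM in control oocytes (SD, n = 3 each, limma adjusted p = 0.0411), a call lost in 7 of 17 alternatives, among them without any 1 control (0.0977, 0.174 and 0.174) and with the replicate block (0.0714). Tex11, named after its values were seen because its protein binds M1AP, had 3.45, 2.59 and 1.64 FPKM in dKO replicates 1 to 3, against 1.32, 0.981 and 1.03 FPKM in control replicates 1 to 3 (limma adjusted p = 0.0519, and 0.0398 with the replicate block).

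**Figure D4:**
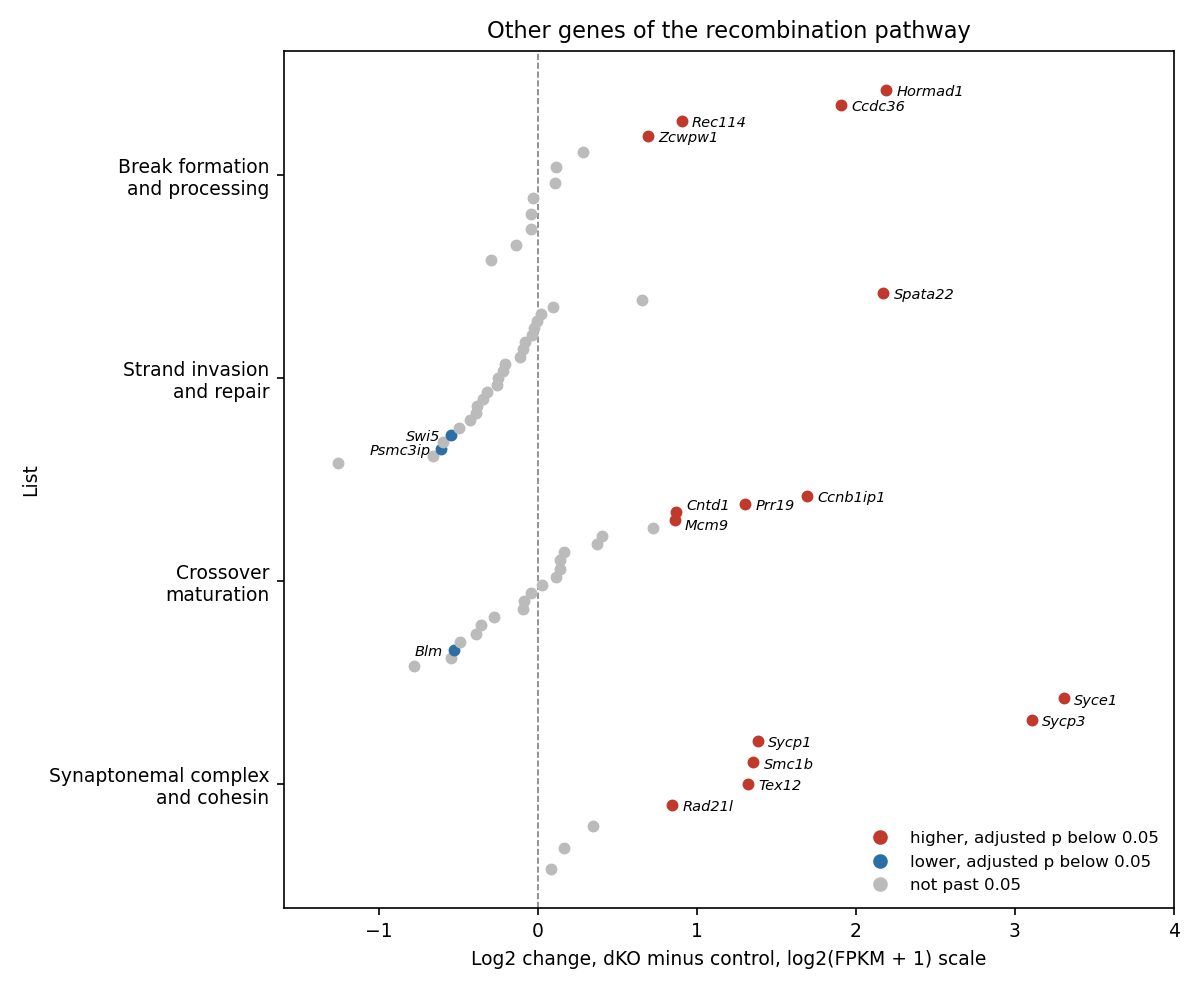
Log2 change, dKO minus control, on the log2(FPKM + 1) scale (horizontal axis) of the tested genes of each list other than the 9 members, with 1 point per gene, red for higher, blue for lower and grey for not past an adjusted p of 0.05. Hormad1, Ccdc36 and Spata22 are the furthest right among the 3 role lists, at 2.19, 1.91 and 2.17, and 6 of 9 synaptonemal and cohesin genes are red.

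The structures on which recombination runs were measured beside these genes. Of 9 tested genes of the synaptonemal complex and meiotic cohesin 6 rose and 0 fell, against 14.0% rising and 7.04% falling over all tested genes. The median log2 change of the 9 was 1.32, and 0 were lower at an unadjusted p below 0.05 (limma). The largest rises were in Syce1, Sycp3 and Sycp1, with log2 changes of 3.31, 3.11 and 1.38 (limma adjusted p = 2.17e-05, 5.25e-05 and 0.00700). The other 3 were Smc1b, Tex12 and Rad21l, of which Tex12 and Rad21l lost their calls with no filter (limma adjusted p = 0.0967 and 0.0717). Sycp3 shares exon sequence with Chpt1.

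Markers of follicle cells moved as well. The granulosa and cumulus list has 14 markers, of which 7 were tested and 4 rose (Fshr, Nr2f2, Wt1 and Has2), against 14.0% of all tested genes. These 4 passed the filter through the dKO libraries alone, and with no filter they were called too (limma adjusted p of 0.00131 to 0.0398). The summed level of all 14 markers of the list was 24.8 to 32.8 FPKM in dKO libraries and 12.0 to 16.8 FPKM in controls. The highest were Cyp19a1, at 5.78 FPKM in dKO and 9.94 FPKM in control oocytes, Fshr, at 10.6 FPKM in dKO and 0.158 FPKM in control oocytes, and Nr2f2, at 4.64 FPKM in dKO and 0.521 FPKM in control oocytes. Cyp19a1 was lower in every dKO library than in any control, with a log2 change of -0.67, just short of the threshold (limma adjusted p = 0.05004). At an unadjusted p below 0.05 (limma) 4 markers of the list were higher and 1, Cyp19a1, was lower. Ptx3 was listed at 0 in every library, and Foxl2 and Amh averaged 0.347 and 0.346 FPKM in dKO oocytes and 0.0596 and 0.692 FPKM in controls. The 14 markers of other ovarian and blood cells summed to 25.3 to 28.9 FPKM in dKO and 25.8 to 34.4 FPKM in control libraries, led by Pecam1, Tek and Cd68. Both sums rest largely on Pecam1, which averaged 14.9 FPKM in dKO and 25.2 FPKM in control oocytes. Cdh5 and Ptprc of the same list, named after their values were seen, were at most 0.0317 and 0.0321 FPKM in any library. Of Pecam1, Tek and Cd68, which alone passed the filter, Pecam1 fell and 0 rose, also at an unadjusted p below 0.05 (limma). With no filter the call of Pecam1 was lost (limma adjusted p = 0.0505) and 3 of the 14 rose, against 9.88% of all genes then tested. These, named after their values were seen, were Col1a1, Dcn and Pdgfra. They averaged 0.138, 1.41 and 0.578 FPKM in dKO and 0.0047, 0.207 and 0.0758 FPKM in control oocytes. Other markers of the list, also named after their values were seen, did not follow. Col1a2 was listed at 0 in every dKO library. Cyp17a1 averaged 0.0361 FPKM in dKO and 0.0713 FPKM in control oocytes, and Star 0.219 and 0.202 FPKM. The part of such cells in the changes of the recombination genes was not tested.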

How the data were processed

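RNA was measured in 6 libraries of 15 pooled oocytes each. Per the labels' protocols, amplification used the Ovation v2 kit, and libraries were sequenced on a HiSeq instrument. The authors deposited FPKM with a column for each library. The submitters' processing notes name Cufflinks 2.0.2, TopHat2 2.0.11 and the mm9 build without their roles. Annotation, strand use and scaling between libraries are not stated there, so overlapping genes may share reads. Absolute depth is unknown and no counting interval is given.

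Dropping 497 exact repeats among 24525 rows gave 24028 genes, with 3718 at 0 throughout. After adding a pseudocount of 1, limma 3.58.1 in R 4.3.3 (lmFit, eBayes with trend, two-sided, Benjamini-Hochberg adjustment) was fitted to the log2 values of genes that reached 1 FPKM in 3 or more libraries. Genes below the filter were read from a fit on all 20310 genes above 0. The procedure was tested on simulated data. Relative depth assumes that low values are whole multiples of 1 fragment. Per the labels, each replicate number stands for 1 flow-cell lane, so the number pairs libraries across groups. Deviations of paired libraries from the group means correlated at 0.147, 0.107 and 0.0637. The fit reported has no block. The index sequence differed between groups but not within them, and the design cannot part index from group.

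The members, gene lists, motifs and tests were chosen with earlier results of these data known. The text names all members, up to 3 rising and 3 falling called genes of each role list and of the synaptonemal list, the 3 highest markers of each cell type, and for called members the 2 nearest genes by Euclidean distance, leaving out predicted genes. Other genes are said to be named after their values were seen, or complete a count. Alternatives for single genes that are not members were added after seeing the data. Alternatives were other pseudocounts, filters, scalings and variance models, the replicate block and leaving out each library. Promoters come from RefSeq, build GRCm38.p6.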

Additional observations from a re-analysis of the deposited data

How the results depend on the processing

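M1ap kept its rise and its call in all 17 alternatives, with log2 changes of 3.30 to 5.43 and limma adjusted p of 9.71e-06 to 0.00131. Msh4 was below 0 and not called in all 17. Of the 9 members 2 rose, and 1 did after quantile normalization, with libraries centred on their means and with array weights, and 1 to 2 when single libraries were left out. The log2 change of Mei4 (0.65) was 0.66 after quantile normalization, 0.55 with centring and 0.61 with array weights, and 0.58 to 0.78 without single libraries. That of Mei1 (0.29) was 1.13 with a pseudocount of 0.1 and 0.49 with 0.5, still called, 0.29 with a 0.1 FPKM filter, 0.071 after quantile normalization, 0.18 with centring and 0.25 to 0.31 without single libraries. With the replicate block it was 0.29 with a limma adjusted p of 0.0611, and among the members the block changed no other call. Changes that were not called turned in sign after quantile normalization for Dmc1 (-0.43), Msh5 (-0.0075), Hfm1 (-0.10) and Mlh3 (-0.36), with centring for Dmc1 (-0.051) and Mlh3 (-0.087), and with a pseudocount of 0.1 for Mlh3 (-0.025). Without single libraries they ranged from -0.23 to 0.22 for Dmc1 and from -0.19 to 0.33 for Mlh3. The causes were not tested.

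Of the other pathway genes 9 rose, and 5 did with a 5 FPKM filter, which tests fewer genes, and 5 to 9 without single libraries. Falls numbered 3, but 8 with centring, 1 without the trend and 0 to 7 without single libraries. The 0 was found without any 1 control, where 4 to 7 fell at an unadjusted p below 0.05 (limma). Over all tested genes 1587 rose and 798 fell. With a 5 FPKM filter 655 rose, with centring 1572 fell, and without single libraries 231 to 1465 fell. Rises made up 66.5% of calls, 52.6% after quantile normalization and 48.0% with centring, which moved the median of all genes to -0.12. Absolute depth is unknown, so its limit on the genes under 1 FPKM was not measured.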
